A study of Mus musculus with 8 samples.

Results

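Hox genes were examined in dermal fibroblasts of young and old mice. The members were all genes whose symbol is Hoxa, Hoxb, Hoxc or Hoxd followed by a number from 1 to 13 on a probe set annotated to that symbol alone. This gave 34 genes, read by 42 probe sets, among 17097 genes in all: 9 of the Hoxa cluster, 10 of Hoxb, 6 of Hoxc and 9 of Hoxd. Where several probe sets read a gene, the one with the highest mean across the 8 arrays was used.

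The study asked how age alters the fibroblast transcriptome. It compared 4 young mice (2 months old) with 4 old mice (18 months old), with 1 array per animal and no treatment named. Strain, sex and the region of skin are not given in the sources used here. Skin without its subdermis was digested with collagenase, and the cells sorted for the array lacked CD45, CD117, CD24, CD31 and EpCam and carried Pdgfra and CD34. RNA was taken from the sorted cells, and in such a bulk sample fewer cells of a type and less RNA per cell cannot be told apart. The labels call each animal a specimen and say no more of how animals were kept or chosen.

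Hox genes encode homeodomain transcription factors that lie in clusters on different chromosomes. Within a cluster the genes stand in order of their number, and in the embryo low-numbered genes are active from the hindbrain and neck backwards, while high-numbered genes are active in the lower trunk, tail and distal limb. Genes of the same number in different clusters are paralogs, descended from 1 ancestral gene. Fibroblasts of adult skin keep a pattern of Hox transcripts that reflects the body region they come from, and this is called positional identity.

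Levels are log2 values after RMA normalization, so a step of 1 is a 2-fold change. Probe sets differ in how strongly they bind, so levels of different genes were not compared with each other. Each gene was set only against a floor on its own array, the 95th percentile of 79 olfactory, vomeronasal and taste receptor genes, which lay between 4.97 and 5.22. A gene under this floor may still be transcribed below what its probe set can show.

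Markers of the sort gate were read first. All 8 fibroblast markers were above the floor on all arrays, with Pdgfra at 8.36 in young and 8.52 in old on average, and Cd34 at 11.73 and 11.68. Ptprc (CD45), Kit (CD117) and Epcam were above the floor on none, but Pecam1 (CD31) was above it on 2 of 4 young and 3 of 4 old arrays (means 5.07 and 5.43), and CD24 was not examined. The mean of the fibroblast markers ranged from 11.37 to 11.49 in young and from 11.19 to 11.31 in old. Csf1r, a macrophage receptor, was 8.57 in young and 6.65 in old. It was called lower, but the other 6 of 7 haematopoietic and macrophage markers were not called. The median difference of these 7, old minus young, was 0.05. Their mean ranged from 5.39 to 5.56 in young and from 5.21 to 5.42 in old, so the ages overlapped. Tek, an endothelial receptor, was 6.31 in young and 8.05 in old. Of the keratinocyte markers, 7 of 9 lay above the floor on all arrays, and their mean level ranged from 6.87 to 7.94 in young and from 7.50 to 8.68 in old, with 2 markers called higher and 1 lower. The mean of the endothelial markers ranged from 4.89 to 5.09 in young and from 5.10 to 5.56 in old, and that of mural cell markers from 5.45 to 5.91 and from 5.93 to 6.34. Of 7 endothelial markers 2 were above the floor on all arrays, and Tek had the largest difference, 1.73. Of 5 mural cell markers 3 were above it on all arrays and 0 were called. Rgs5, above the floor on 1 old array only, had the largest difference there, 1.20. Each of these 2 genes weighs heavily on the mean of its list. A background index, the mean of 10 non-specific control probe sets with 16 to 25 G or C bases, was 6.03 ± 0.12 in young and 5.49 ± 0.23 in old (SD, n = 4 each; exact 2-sided permutation p = 0.0286, the smallest that 4 against 4 arrays allow). Young replicate 1 stood apart in a spiked control, with a mean of 9.67 over 6 BioB probe sets against 7.02 to 7.64 on the other arrays, and had the highest background index, 6.21.

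Hox transcripts of the trunk were present in these fibroblasts, and those of the distal limb and tail were not detected. On all 8 arrays 18 Hox genes were above the floor, Hoxb3 was above it on 4 arrays, and 15 were above it on none. The detected genes ran from Hoxb2 to Hoxc10 by number, and none numbered 11, 12 or 13 was among them. With the floor at the 99th percentile (6.16 to 6.86, set by a few bright receptor probe sets) 7 genes remained above it: Hoxa9, Hoxc4, Hoxc8, Hoxc9, Hoxc10, Hoxd8 and Hoxd9.

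**Figure D1:**
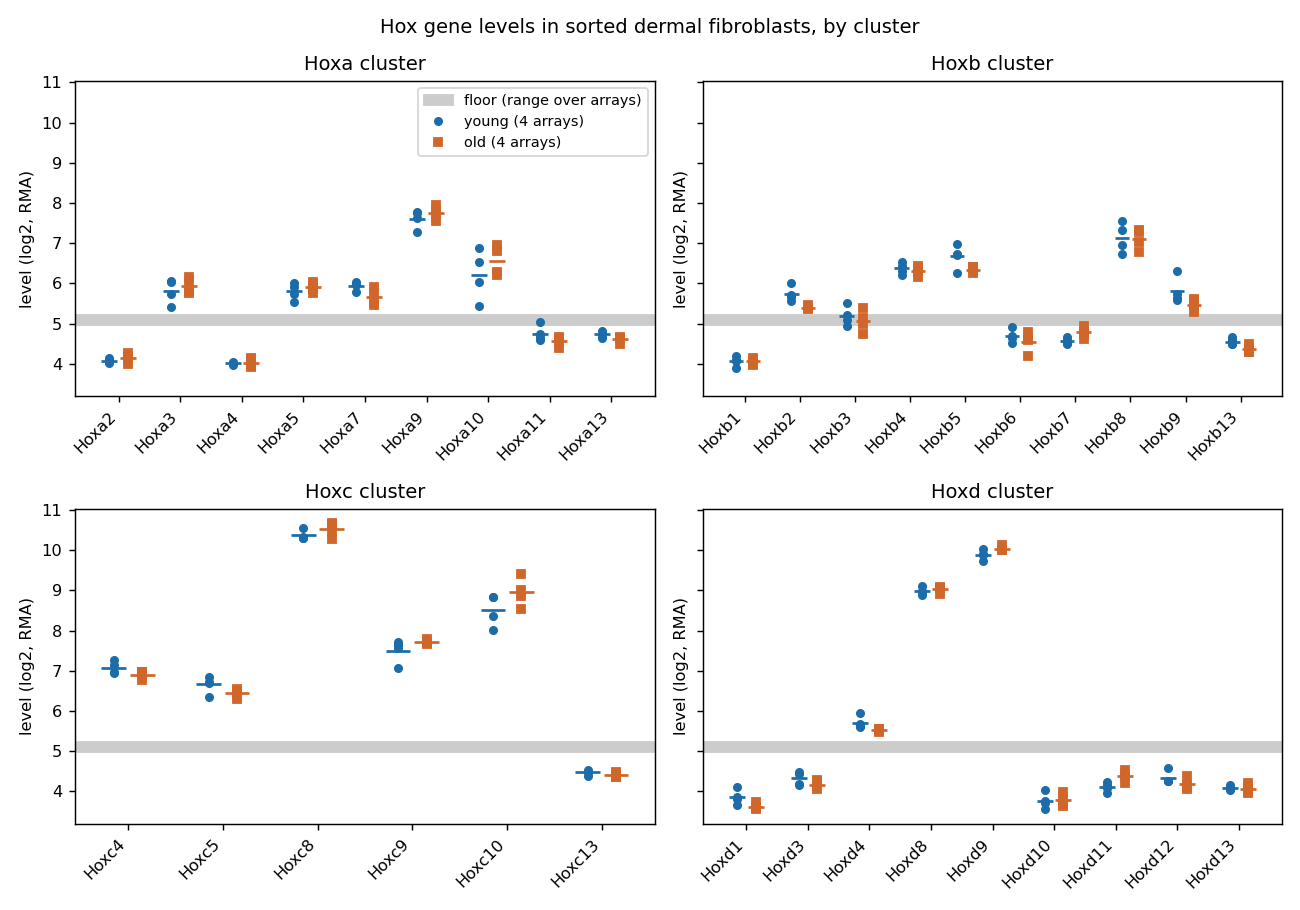
Level of each Hox gene (log2 after RMA, y axis) in order along the 4 clusters (x axis), with 1 point per array for 4 young (circles) and 4 old (squares) animals, short lines for group means and a grey band for the floor (4.97 to 5.22). Heights of different genes are not comparable. The last gene above the band in each cluster stands before Hoxa11, Hoxb13, Hoxc13 and Hoxd10, with no measured gene between Hoxc10 and Hoxc13. Hoxa4, Hoxb6 and Hoxb7 lie under the band among detected genes, and Hoxb3 straddles it.

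Each cluster had its own limit. In Hoxd, Hoxd8 and Hoxd9 were far above the floor while the next gene, Hoxd10, was at background. Hoxd9, which acts with other group 9 genes in the lumbar region and the upper limb, read 10.03, 9.88, 9.91 and 9.74 in young replicates 1 to 4 and 10.02, 10.01, 10.01 and 10.13 in old. Hoxd10, a hindlimb and lumbar motor neuron gene, read 3.56, 4.03, 3.70 and 3.76 in young and 3.65, 3.63, 3.86 and 3.98 in old. Hoxd9 was above the floor and Hoxd10 under it on every array of both ages. Hoxd11, Hoxd12 and Hoxd13, genes of the forearm, hand and foot, lay between 3.96 and 4.57 on the 8 arrays.

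Sequences before the starts of Hoxd genes on either side of the floor are shown, since detection ended between Hoxd9 and Hoxd10. The windows below hold the 250 bases upstream of the RefSeq start of Hoxd4 and Hoxd9, both above the floor, and of Hoxd10 and Hoxd13, both under it, from RefSeq on build GRCm38.p6, plus strand. They span chr2:74721728-74721977, chr2:74697513-74697762, chr2:74691641-74691890 and chr2:74667975-74668224 in that order. Capitals mark CG dinucleotides.
Hoxd4: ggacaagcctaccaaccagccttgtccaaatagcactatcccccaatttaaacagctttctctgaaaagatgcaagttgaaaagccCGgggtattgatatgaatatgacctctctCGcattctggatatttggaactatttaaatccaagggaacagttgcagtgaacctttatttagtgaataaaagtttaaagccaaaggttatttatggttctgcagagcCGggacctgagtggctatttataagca
Hoxd9: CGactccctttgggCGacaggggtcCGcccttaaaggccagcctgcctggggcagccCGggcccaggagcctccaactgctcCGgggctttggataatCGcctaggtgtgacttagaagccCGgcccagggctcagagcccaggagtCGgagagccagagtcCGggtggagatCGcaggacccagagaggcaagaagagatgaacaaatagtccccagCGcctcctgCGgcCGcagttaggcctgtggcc
Hoxd10: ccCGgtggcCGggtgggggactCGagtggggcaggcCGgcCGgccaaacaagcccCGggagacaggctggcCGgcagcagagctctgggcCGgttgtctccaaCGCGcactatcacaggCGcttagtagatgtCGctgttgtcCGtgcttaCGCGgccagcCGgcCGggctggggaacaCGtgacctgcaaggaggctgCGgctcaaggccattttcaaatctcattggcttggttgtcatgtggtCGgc
Hoxd13: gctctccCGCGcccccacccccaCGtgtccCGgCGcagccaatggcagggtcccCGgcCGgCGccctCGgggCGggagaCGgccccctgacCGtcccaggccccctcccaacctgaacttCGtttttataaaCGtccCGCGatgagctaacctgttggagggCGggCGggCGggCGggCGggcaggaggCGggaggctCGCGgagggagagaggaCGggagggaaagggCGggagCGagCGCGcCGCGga
The windows of Hoxd4, Hoxd9, Hoxd10 and Hoxd13 hold 3, 13, 20 and 31 CG dinucleotides, and 71.0%, 31.5%, 17.9% and 5.19% of 32851 such windows of all genes hold at least as many. Over the Hox genes with a window in the table, the median was 10 for 12 windows of 11 genes above the floor and 13 for 11 windows of 10 genes under it, against 6 over all windows. The ranges overlapped, from 3 to 28 above the floor and from 2 to 35 under it. The motif TATAAA, searched on the gene's strand, was in the window of Hoxd13 alone among these Hox windows and in 7.59% of all windows. These letters describe the windows and say nothing of what binds there.

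In Hoxa the last detected gene was Hoxa10. This gene, needed for the uterus and for the lumbar vertebrae, read 6.88, 6.53, 5.43 and 6.03 in young and 6.21, 6.95, 6.80 and 6.29 in old. Hoxa11, the next gene and a factor of the forearm and uterus, lay between 4.39 and 5.03 and was above the floor on no array. Hoxa13, a gene of hand and foot, lay between 4.48 and 4.82.

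In Hoxc the last detected gene was Hoxc10, with no measured gene between it and Hoxc13. Hoxc10, which is active in the hindlimb and the lumbar spinal cord, read 8.83, 8.37, 8.02 and 8.83 in young and 8.54, 9.41, 9.01 and 8.87 in old. Hoxc13, a factor of hair shafts and nails that hair follicle cells make, lay between 4.35 and 4.52. The thoracic gene Hoxc8 read 10.33, 10.56, 10.31 and 10.30 in young and 10.29, 10.45, 10.68 and 10.66 in old, far above the floor.

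In Hoxb the detected genes were Hoxb2, Hoxb4, Hoxb5, Hoxb8 and Hoxb9. Hoxb6 (4.19 to 4.91) and Hoxb7 (4.48 to 4.94) were under the floor although they lie between Hoxb5 and Hoxb8, and each was read by 1 probe set only. Hoxb13, a gene of the tail end and of the prostate, lay between 4.28 and 4.67. Hoxb8 was read by a probe set whose suffix marks probes shared with other transcripts in the array maker's naming, as was the probe set used for Hoxd8.

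At the low-numbered end, Hoxa2, Hoxa4, Hoxb1, Hoxd1 and Hoxd3 were under the floor on all arrays. Hoxa2 and Hoxb1 pattern the hindbrain and its neural crest, and lay between 3.99 and 4.27 and between 3.89 and 4.20. Hoxa4 lay between 3.91 and 4.13, Hoxd1 between 3.55 and 4.12 and Hoxd3 between 4.05 and 4.47. Hoxb3 straddled the floor, at 5.22, 5.50, 4.94 and 5.10 in young and 4.75, 5.38, 4.98 and 5.14 in old (log2 difference -0.13). Hoxa3, which is needed for the thymus and parathyroid, was above the floor on all arrays with 1 of its 4 probe sets (young mean 5.81) and on none with the other 3 (young means 4.06, 4.21 and 4.70).

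The test called 1 Hox gene between ages. Of 34 Hox genes, 1 was lower in old fibroblasts, Hoxb2, and 0 were higher (limma with Benjamini-Hochberg adjustment over all 17097 genes, threshold 0.05). Over all genes 7.66% were lower and 9.87% higher, 17.5% in either direction, against 2.94% of the Hox genes. Among genes above the floor on all arrays the test called 26.6% of 9497, and 1 of the 18 Hox genes. At an unadjusted p under 0.05 there were 2 higher and 7 lower Hox genes of 34, a share not far from the 29.7% of all genes. The 2 higher ones, Hoxb7 and Hoxd11, were under the floor on all arrays. Among the 18 Hox genes above it, 0 were higher and 5 lower at this p, against 2300 higher and 1694 lower of the 9497. The groups did not overlap for 2 Hox genes, Hoxb2 and Hoxd4, both lower in old, or 5.88%, against 21.3% of all genes in either direction and 9.66% lower in old.

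For the 18 Hox genes above the floor, the 95% interval of the age difference lay within 1 on either side of 0, so short of a 2-fold change, for all 18, and within 0.5 for 11. With the background index in the model the estimate for Hoxa10 was 1.09, past that bound. Intervals of the 15 genes under the floor describe background signal and bound no transcript change. The largest difference was that of Hoxc10, 0.45 (95% interval -0.03 to 0.92). The median absolute difference was 0.19 for the 18 genes and 0.17 for all 9497 genes above the floor, and the median SD within ages was 0.17 for the 18 genes and 0.13 for the 9497.

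**Figure D2:**
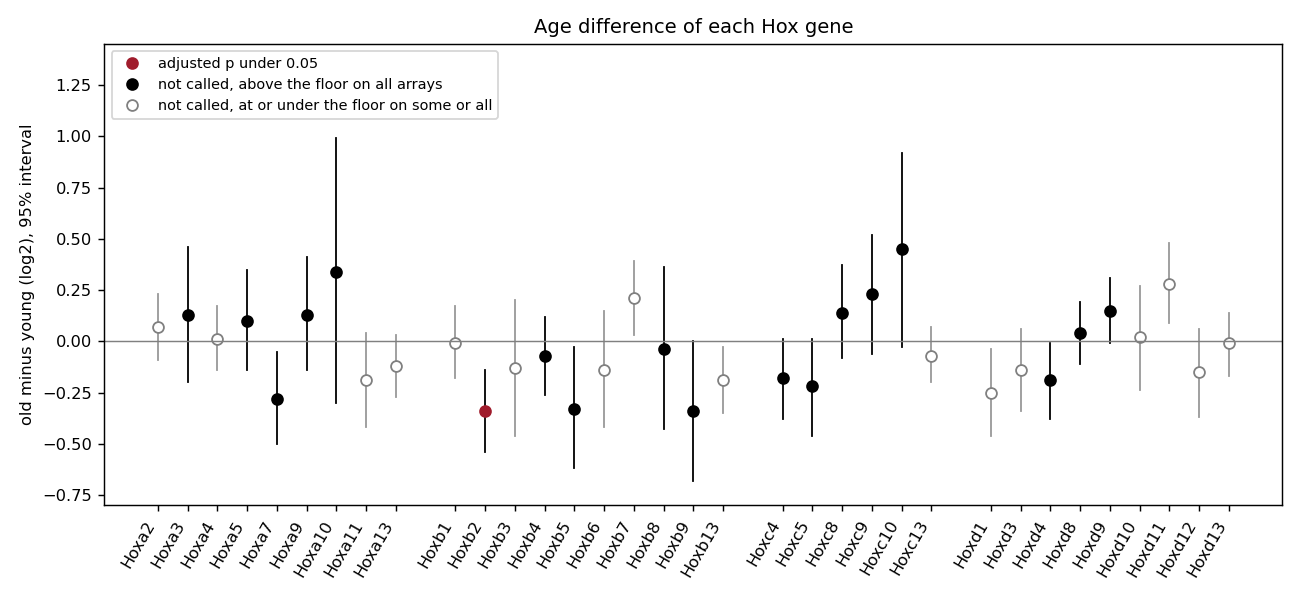
Age difference of each Hox gene (old minus young, log2, y axis) with its 95% interval from the fit over all genes, ordered along the clusters (x axis), filled where the gene was above the floor on all arrays. Hoxb2 (-0.34) is the 1 gene past the threshold, and no interval reaches a difference of 1 in either direction.

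Hoxb2, a gene of hindbrain segments and the lowest-numbered Hox gene detected in its cluster, fell in old fibroblasts. It read 6.00, 5.65, 5.72 and 5.57 in young and 5.36, 5.39, 5.38 and 5.45 in old. All old values were under all young values and close to the floor, and young replicate 1 was the highest. The log2 difference was -0.34 ± 0.09 (SE; 1.27-fold lower, limma adjusted p = 0.0274). The call was lost without old replicate 1 (adjusted p = 0.0537), old replicate 2 (0.0624), old replicate 3 (0.0628) or young replicate 3 (0.0612). Without young replicate 1 the difference was -0.25 (adjusted p = 0.0326). When the background index was added to the model it was -0.16 (adjusted p = 0.816), and the index itself did not overlap between ages, at 5.24 to 5.80 in old and 5.94 to 6.21 in young.

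Other low-numbered genes with negative differences did not pass the test. Hoxd4 read 5.96, 5.60, 5.67 and 5.63 in young and 5.56, 5.50, 5.55 and 5.48 in old, with no overlap (log2 difference -0.19, limma adjusted p = 0.155). Hoxb5, a factor of the neck and shoulder level, read 6.71, 6.98, 6.73 and 6.25 in young and 6.40, 6.25, 6.40 and 6.31 in old (-0.33, adjusted p = 0.125). In Hoxb5 the old values were close together while young replicate 4 lay among them. Without that array the difference was -0.47 (limma adjusted p = 0.00911), and it ranged from -0.47 to -0.22 as single arrays were left out.

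The group 4 and 5 genes of the Hoxc cluster had the same sign. Hoxc4 read 6.94, 7.27, 7.15 and 6.97 in young and 6.88, 6.97, 6.77 and 6.97 in old (-0.18, limma adjusted p = 0.189). Hoxc5 read 6.36, 6.69, 6.85 and 6.73 in young and 6.29, 6.55, 6.50 and 6.40 in old (-0.22, adjusted p = 0.194). The second probe set of Hoxc5 differed by -0.41, and with it the gene was called lower (adjusted p = 0.0371). Hoxb4, which is known for its part in blood stem cells, differed by -0.07 and overlapped between ages.

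Hoxa3 and Hoxa5 had positive differences, of 0.13 and 0.10. Hoxa5, a factor of the lung and the upper thorax, read 5.73, 5.92, 5.54 and 6.02 in young and 5.75, 6.03, 5.87 and 5.98 in old, with overlapping values and a wider spread in young. Hoxa7, of the thoracic level, read 5.98, 5.97, 5.78 and 6.04 in young and 5.47, 5.55, 5.90 and 5.75 in old (-0.28, limma adjusted p = 0.095), and 1 old value lay above the lowest young one. Without that old array, replicate 3, the difference was -0.35 (adjusted p = 0.0369), and with the background index in the model it was 0.04.

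Among detected genes numbered 8 to 10 none passed the test. Hoxc10 differed by 0.45 ± 0.21 (SE, limma adjusted p = 0.197), Hoxa10 by 0.34 ± 0.29 (0.48) and Hoxc9 by 0.23 ± 0.13 (0.269). These values leaned on young replicate 3: without it they were 0.28, 0.08 and 0.08, and that of Hoxa9 was 0.02. Hoxc9 read 7.57, 7.72, 7.06 and 7.64 in young and 7.79, 7.67, 7.75 and 7.70 in old, so that young replicate 3 alone was far from the rest. Hoxa9, a gene of the lumbar level that is also active in blood progenitors, read 7.78, 7.75, 7.28 and 7.62 in young and 7.68, 7.95, 7.79 and 7.54 in old (0.13, adjusted p = 0.532). Hoxd9, Hoxc8 and Hoxd8 differed by 0.15, 0.14 and 0.04. The other probe set of Hoxd8, with probes for this gene alone by its suffix, differed by -0.15.

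The Hoxb genes of this range did not pass either. Hoxb9 read 5.64, 6.32, 5.73 and 5.58 in young and 5.29, 5.60, 5.43 and 5.58 in old (-0.34, limma adjusted p = 0.167). Hoxb8, whose loss in mice causes excessive grooming, read 6.95, 7.54, 7.32 and 6.74 in young and 6.78, 7.28, 7.03 and 7.32 in old (-0.04, adjusted p = 0.925), and its sign turned when old replicate 1 (0.07), young replicate 2 (0.10) or young replicate 3 (0.03) was left out. All 5 detected Hoxb genes had negative differences, with a median of -0.33, whereas 4 of 5 in Hoxa, 3 of 5 in Hoxc and 2 of 3 in Hoxd were positive, with medians of 0.13, 0.14 and 0.04.

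Signs of the age difference were counted by the number of the gene. Of 9 detected genes numbered 2 to 7, 2 were positive, with a median of -0.19, and of 9 numbered 8 to 10, 7 were positive, with a median of 0.14 (0.08 without young replicate 3). Across the 18 genes, which share the same arrays and are not independent, Spearman's rho between number and difference was 0.59, given as a description. The mean of the genes numbered 8 to 10 minus the mean of those numbered 2 to 7 was 1.88, 1.90, 1.64 and 1.80 on the young arrays and 1.98, 2.23, 2.09 and 2.03 on the old ones. The ages did not overlap in this contrast, and their means differed by 0.28. The genes numbered 2 to 7 lay closer to the floor, with array means of 5.98 to 6.29, than those numbered 8 to 10, with 7.80 to 8.25. Gene number and distance from the floor thus went together, and the background index was lower in old. Their shares in the contrast cannot be told apart. This split of the genes was chosen after their values were seen, so no test is given.

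The contrast was recomputed with genes or clusters left out. It was 0.32 higher in old without the Hoxb genes, 0.24 without Hoxc10, 0.25 without Hoxa10, 0.25 without Hoxb2 and 0.22 with Hoxa7 counted among the high-numbered genes. By cluster it was 0.48 in Hoxc and 0.29 in Hoxd, with no overlap between ages, but 0.25 in Hoxa and 0.06 in Hoxb, where the ages overlapped. Few genes stand behind each: 2 low- and 3 high-numbered ones in Hoxc, and 1 (Hoxd4) and 2 in Hoxd. Hoxa and Hoxb had 3 and 2 each. In Hoxc the highest young value, 2.26, was close to the lowest old one, 2.29. These recomputed values rest on the genes and arrays on which the split was chosen, so they are a description and no support for it. With the background index in the model the medians were -0.16 and 0.23. The background index and the fibroblast, endothelial and mural marker means, given above, did not overlap between ages, and their part in the contrast was not tested. The endothelial and mural means lean on Tek and Rgs5.

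**Figure D3:**
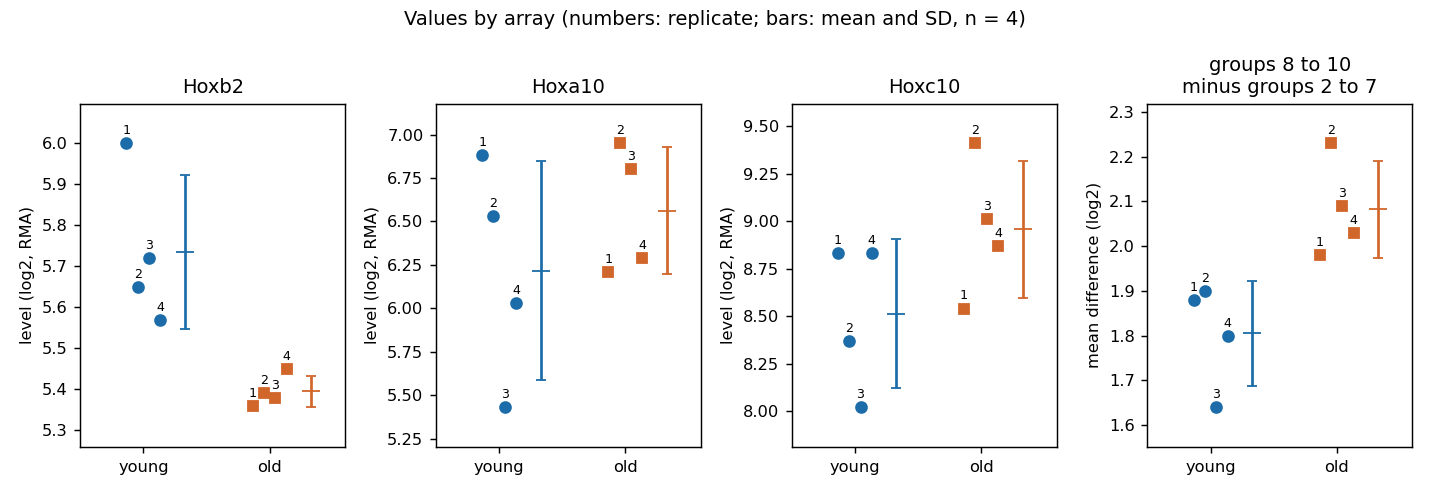
Hoxb2, Hoxa10 and Hoxc10 levels (log2 after RMA) and the mean of detected genes numbered 8 to 10 minus that of genes numbered 2 to 7 (log2, last panel), by array, with replicate numbers beside the points and bars for mean and SD (n = 4). Hoxb2 and the contrast (1.64 to 1.90 in young, 1.98 to 2.23 in old) do not overlap between ages, while Hoxa10 and Hoxc10 do.

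Arrays of the same age differed more in some Hox genes than in most other transcripts. With 1 array per animal and no skin region given, differences between animals, sampling and arrays cannot be told apart. The SD within ages was 0.52 for Hoxa10, and 0.38 for Hoxc10, larger than in 96.9% of the 9497 genes above the floor. For Hoxb8 (0.31) the share was 94.3%, and for Hoxd8 (0.08) it was 16.6%. In Hoxa10 the lowest young value, 5.43 in replicate 3, and the highest, 6.88 in replicate 1, were further apart than any age difference of a Hox gene. Young replicate 3 was also the lowest young array in Hoxa9, Hoxc9 and Hoxc10, and old replicates 1 and 4 were the lower old ones in Hoxa10 and Hoxc10.

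Paralogs were compared across the 8 arrays in 16 pairs. Hoxa10 and Hoxc10 had the highest correlation, with Pearson's r = 0.77 (exact permutation p = 0.0309, adjusted 0.494 over the pairs) and Spearman's rho = 0.68 (exact permutation p = 0.0708, adjusted 0.567). Without the 2 arrays farthest from the median of Hoxa10, r was 0.23. Leaving out the most extreme arrays also narrows the range, so this cannot tell whether the relation rests on them. After the mean of each age was taken off, r over the 8 arrays was 0.73. Hoxa9 and Hoxc9 followed with r = 0.73 and rho = 0.31 (exact permutation p = 0.152 and 0.462, adjusted 0.681 and 0.851), and r was -0.05 without the 2 farthest arrays. No pair passed after adjustment.

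Among genes under the floor none was called. The largest differences were those of Hoxd11 (0.28, limma adjusted p = 0.0507) (old 4.39 ± 0.14, young 4.11 ± 0.12, SD over 4 arrays) and of Hoxd1 (-0.25, adjusted p = 0.101). Hoxd11 was called higher under 6 alternatives without rising above the floor on any array, so no fold change is given for it.

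Genes that work with or regulate Hox genes were read against the background of 17.5% called among all genes and 26.6% among those above the floor. Of 10 measured TALE homeodomain cofactors, which bind DNA together with Hox proteins, 1 was higher, Meis2 (0.23 ± 0.06 SE, limma adjusted p = 0.0319), a smaller share than among all genes. Its call was lost under 12 of the alternatives, and with the most variable probe set its difference turned to -0.11. The list's median difference was 0.23, against 0.01 over all genes. Of 5 measured non-coding RNAs of the clusters, Hoxd3os1 was lower (-0.25, adjusted p = 0.0392), at 3.65 in old and 3.90 in young, both under the floor, a call lost under 9 of the alternatives.

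Of 28 Polycomb proteins, which keep Hox genes silent outside their domain, 8 were higher and 1 lower in old, or 32.1%, with a median of 0.16. Of the 28, 26 were above the floor on all arrays, and 26.6% of all such genes were called. Pcgf5, a subunit of a histone H2A ubiquitin ligase complex, read 8.41, 7.96, 8.29 and 8.14 in young and 9.67, 8.98, 8.92 and 9.31 in old. It rose by 1.02 ± 0.16 (SE, limma adjusted p = 0.00233). Cbx7, a reader of the H3K27 methyl mark, rose by 0.68, Kdm2b, which brings a Polycomb complex to CpG islands, by 0.47 and Aebp2, a cofactor of the methylating complex, by 0.45. In each of these 4 genes, named for their large differences, all old values were above all young values, as in 11.7% of all genes. The 1 that fell was Scmh1 (-0.39), named after its value was seen.

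Of 17 measured Trithorax group genes and H3K27 demethylases, which oppose Polycomb, 2 rose and 15 did not pass, with a median of 0.03. The 11.8% called is below the share of all genes. Psip1, which helps to bring the MLL methyltransferases to chromatin, read 7.06, 6.82, 6.62 and 6.78 in young and 7.73, 7.69, 7.67 and 7.91 in old. The difference was 0.93 ± 0.10 (SE, limma adjusted p = 2.4e-04). Kmt2c, a methyltransferase of enhancers, rose by 0.28, a call lost under 7 of the alternatives. Of 9 genes of Ctcf and cohesin, which fold chromatin at the Hox clusters, 4 rose and 5 did not pass, with a median of 0.26. The 9 genes were all above the floor, and 44.4% were called, against 26.6% of such genes. They were Smc3 (0.36), Nipbl (0.30), Stag1 (0.26) and Stag2 (0.20). The call of Nipbl was lost with the mean of its probe sets, and its difference turned to -0.01 with the most variable one. The calls of Stag1 and Stag2 were lost when any 1 of 6 and of 8 arrays was left out.

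Of 13 genes of retinoic acid, which switches on low-numbered Hox genes in the embryo, 2 rose and 1 fell, with a median of -0.02. The 23.1% called lies between the shares of all genes and of genes above the floor. Of the 13, 9 were above the floor on all arrays, and the called genes were all among these 9. Cyp26b1, which breaks retinoic acid down, read 11.20, 11.59, 11.25 and 11.64 in young and 11.80, 11.88, 11.87 and 11.91 in old. It rose by 0.45 ± 0.10 (SE, limma adjusted p = 0.0155). Aldh1a3, which makes retinoic acid, rose by 0.59 and the receptor Rarg fell by 0.35 on the log2 scale.

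Genes beside the clusters and other positional factors were read from the same arrays. Of 16 measured ParaHox genes and neighbours, 2 rose and 1 fell, with a median of -0.05. The 18.8% called is near the 17.5% of all genes, but only 5 of the 16 were above the floor on all arrays. The called genes were all among these 5. Skap2, a gene beside the Hoxa cluster and an adaptor of integrin signalling, rose by 1.00 ± 0.16 (SE, limma adjusted p = 0.00266). Cbx5, the second gene beyond Hoxc4 and a heterochromatin protein, rose by 0.50. Mtx2, next to Hoxd1 and part of the mitochondrial outer membrane, fell by 0.31 on the log2 scale, a call lost when any 1 of 6 arrays was left out.

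Of 42 measured non-Hox factors of limb, trunk and head mesenchyme, 5 rose, 1 fell and 36 did not pass, with a median of -0.04. The 14.3% called is below the 17.5% of all genes, but only 13 of the 42 were above the floor on all arrays. Tbx15, Tfap2a and Emx2, all called, were among these 13, so the low share is not one of detected genes. Tbx15, which sets the dorsal pattern of skin and coat, read 8.99, 8.99, 9.19 and 8.98 in young and 9.44, 9.38, 9.38 and 9.48 in old. It rose by 0.38 ± 0.07 (SE, limma adjusted p = 0.00389). Tbx18 rose by 0.71 from 4.93 in young, where 1 of 4 arrays was above the floor, Tfap2a, also a factor of keratinocytes, by 0.66 and Emx2 by 0.51. The calls of Tbx18 and Emx2 were lost when any 1 of 5 and of 4 arrays was left out. Of 9 keratinocyte markers 2 were called higher in old and 1 lower, and their part in the rise of Tfap2a was not tested. With the background index in the model, none of the genes named from these lists kept its call. Over all genes that model called 67 higher and 94 lower, against 1688 and 1310 without the index. The index did not overlap between ages, so this model cannot tell background from age. Some estimates hardly moved with it (Psip1 0.93 to 0.99) and others shrank (Emx2 0.51 to 0.24).

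**Figure D4:**
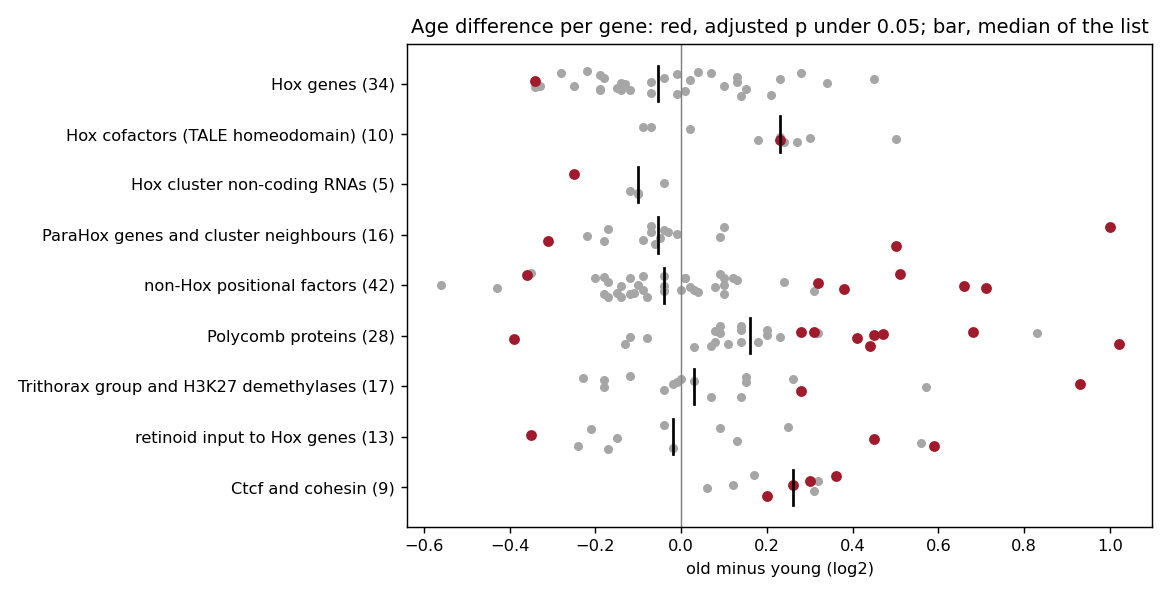
Age difference per gene (old minus young, log2, x axis) for the Hox genes and 8 lists of related genes (y axis, number measured in brackets), with red points past an adjusted p of 0.05 and a bar at each list's median. The Hox genes stay between -0.34 and 0.45 with 1 red point, while Pcgf5 (1.02), Skap2 (1.00) and Psip1 (0.93) lie furthest to the right.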

How the data were processed

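The authors deposited log2 probe set values for 8 arrays, made with RMA and the R package affy per the submitters' processing notes; versions are not given in the sources used here. RMA corrects background, equalises the distributions of probe signals between arrays and then summarises probes. A change common to most transcripts is therefore largely not seen, and low levels are compressed. The medians of the deposited arrays still ran from 5.19 to 5.34. Of 45141 probe sets, the platform annotation gives 28898 a single symbol, 551 several and 15692 none; 28689 of the single-symbol sets matched a RefSeq gene (GRCm38.p6, used for names, gene order and promoter windows). Genes took their probe set of highest mean.

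The age comparison used limma 3.58.1 under R 4.3.3, with lmFit, eBayes, a 2-sided test, no covariates and Benjamini-Hochberg adjustment over 17097 genes. Tested on simulated data with 17097 genes and 4 against 4 arrays, it recovered 62% of changes of 0.5 and 95% of changes of 1 on the log2 scale, and 1.88% of its calls were false. The simulated noise was independent between genes and held no background difference between ages, so these rates need not hold for the real arrays. Exact permutation tests used SciPy 1.17.1, and figures matplotlib 3.10.9. The background index is the mean of 10 non-specific probe sets with 16 to 25 G or C bases. The number of arrays limits the precision, and no depth applies.

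Every Hox gene could be named. From each related list the text names at most the 4 called genes of largest change, and others are marked. The members and lists were chosen with earlier results of these data known. The series text says that each day a young and an old mouse were collected, but the labels do not tie specimen numbers to days, so no block was used. Alternatives covered that block, scaling, dim genes, probe set choice, limma settings, the covariate, the threshold, the floor and each array left out. The contrast between low- and high-numbered genes was added after seeing the data.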

Additional observations from a re-analysis of the deposited data

Results flagged for a closer look

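In 4 Hox measurements and 1 related gene a single array lay far from the other 3 of its age, by the gap divided by the range (Dixon's criterion at its 95% critical value for 4 samples). Chance flags about 1 in 20 groups, and 112 groups were examined. Hoxc8 read 10.56 in young replicate 2, against 10.30 to 10.33 in the other young arrays. Hoxd9 read 10.13 in old replicate 4, against 10.01 to 10.02. Hoxa13 read 4.48 in old replicate 2, against 4.65 to 4.66, and Hoxd12 read 4.57 in young replicate 1, against 4.25 to 4.26, both under the floor. Tbx15 read 9.19 in young replicate 3, against 8.98 to 8.99.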

How the results depend on the processing

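Of 563 age differences of the 34 Hox genes under the alternatives other than the threshold, 512 kept direction and side of the threshold, 14 gained a call, 5 lost it (all Hoxb2) and 32 changed sign, none of them in a called gene. The cause was not tested. The count of lower Hox genes, 1, became 2 with array weights, the mean of probe sets, the most variable probe set or a second quantile normalization, 0 with the background covariate or a threshold of 0.01, and 0 to 3 when single arrays were left out. The count of higher Hox genes, 0, became 1 with array weights, the mean of probe sets, quantile normalization or trend and robust settings, and 0 to 1 without single arrays; the gene was Hoxd11, under the floor. The 18 genes above the floor became 7 at the 99th percentile. In the related lists, 24 higher and 5 lower genes became 0 and 0 with the covariate and 12 and 2 at 0.01. The lower ones became 3 without dim genes or with the mean of probe sets, and 2 to 5 without single arrays (higher 17 to 24). With the covariate, 67 genes of all were higher and 94 lower, against 1688 and 1310.

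Sign changes with the covariate were Hoxa4 (-0.13), Hoxa7 (0.04), Hoxb6 (0.26), Hoxb7 (-0.01), Hoxb13 (0.04), Hoxd3 (0.04), Hoxd10 (-0.01) and Hoxd13 (0.04). With array weights they were Hoxa4 (-0.04) and Hoxb8 (0.00), and after median centring Hoxa4 (-0.01) and Hoxd10 (-0.01). Hoxd8 was -0.06 with the mean of probe sets, -0.15 with the most variable one and -0.03 after quantile normalization. With the most variable probe set Meis2 was -0.11 and Nipbl -0.01. Without single arrays the ranges were 0.00 to 0.22 for Hoxa3, -0.02 to 0.05 for Hoxa4, -0.07 to 0.04 for Hoxb1, -0.17 to 0.10 for Hoxb8, -0.05 to 0.11 for Hoxd10 and -0.06 to 0.02 for Hoxd13. The share of higher genes among all calls was 56.3%, 45.2% after quantile normalization and 49.5% after median centring; the median of all genes moved by less than 0.1.

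The specimen number as a replicate block changed no Hox call (Hoxb2 adjusted p = 0.0387 by limma; 1 lower, 0 higher). In the related lists it gave 27 higher and 4 lower genes: Meis2, Hoxd3os1 and Stag2 lost their calls (adjusted p = 0.0516, 0.0529 and 0.0853), and Ezh2, named after its values were seen, gained one (0.134 to 0.00476). Same-numbered arrays correlated in their deviations by -0.04 to 0.29, others by -0.26 to 0.21, and 2 of 4 young arrays correlated best with their own number, so the numbers were not taken to pair the animals. Signal near background limits the 15 Hox genes under the floor.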
